A study of Mus musculus with 12 samples.

Results

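The respiratory chain was followed here through 113 of the 41709 genes counted in mouse aortic valve leaflets. Members were chosen by name. The mitochondrial set holds the 13 protein genes of the mitochondrial genome, with names beginning mt-Nd, mt-Co, mt-Cytb or mt-Atp. The nuclear set holds 100 genes named Nduf, Uqc, Cox4 to Cox8 or Atp5, together with Sdha, Sdhb, Sdhc and Sdhd. Of the nuclear set, 89 encode subunits or their close relatives and 11 (Ndufaf and Uqcc genes) encode assembly factors. Cyc1, a subunit of complex III, carries none of these names and is counted with the electron carriers below.

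All mice were of the mixed strain C57BL/6J;129SvEv and aged 2 months, and 4 genotype groups coded CTRL, ECKO, SMKO and DKO were compared, with 3 libraries in each. The labels give no gene behind the codes. As the study is known, the elastic fibre protein fibulin-4 (Efemp2) was removed from endothelial cells in ECKO, from smooth muscle cells in SMKO, and from both in DKO. The labels name neither the promoter that drives Cre nor the animal behind a library, so p-values measure the spread between libraries. Whole leaflets were cut out by laser from fixed frozen sections of 20 μm, and amplified cDNA was sequenced.

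Oxidative phosphorylation is carried out by protein complexes in the inner mitochondrial membrane. Complexes I, III and IV pump protons as electrons pass to oxygen, complex II feeds in electrons from succinate, and complex V (ATP synthase) makes ATP from the proton gradient. All of these but complex II are assembled from subunits of both genomes. The mitochondrial genes are transcribed inside the organelle as long polycistronic RNAs that are then cut into messengers, whereas the nuclear genes are transcribed singly and their proteins are imported.

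Library totals ran from 74827 counts (SMKO 3) to 615665 counts (ECKO 2), with a median of 321312. For Efemp2, every DKO library and SMKO 2 and 3 had 0 counts and SMKO 1 had 4, while ECKO 1, 2 and 3 had 3, 15 and 8 and the CTRL libraries 58, 23 and 9. All 8 markers of valve interstitial cells and all 7 of valve endothelium passed the count filter. Heart muscle markers summed to 1090 CPM (counts scaled to the library total) in ECKO 2, where 13 of the 14 were detected, and to between 24.1 and 107 CPM in the other 11 libraries. CTRL 3 and SMKO 3, the shallowest libraries, also stood apart in the shares given below, so results that rest on them are given with and without them.

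Mitochondrial messengers are packed end to end. Neighbours can share bases, which matters because a read in a shared stretch belongs to both genes. Shared bases were looked up for 3 chosen pairs, and other neighbours were not examined. The stretches are given as they run in the upstream gene, in GENCODE M21 transcripts of the mitochondrial chromosome (build GRCm38). Capitals mark the shared bases and lower case the flanks of 25 bases. The mt-Atp8 and mt-Atp6 stretch covers 43 bases, 21.1% of the 204 bases of mt-Atp8. How reads that touch it were counted is not given, so how much of the mt-Atp8 count is shared is not known. The mt-Nd4l and mt-Nd4 stretch has 7 bases. The mt-Nd5 and mt-Nd6 stretch has 14 bases, and these genes lie on opposite strands. The library kit keeps no strand, so reads from that pair cannot be separated there. The strand of reads over the rest of mt-Nd6 is not known either.
mt-Atp8 into mt-Atp6: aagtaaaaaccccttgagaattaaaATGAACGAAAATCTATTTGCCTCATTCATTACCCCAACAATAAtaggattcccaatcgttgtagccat
mt-Nd4l into mt-Nd4: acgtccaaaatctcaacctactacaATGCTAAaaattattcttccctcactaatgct
mt-Nd5 into mt-Nd6: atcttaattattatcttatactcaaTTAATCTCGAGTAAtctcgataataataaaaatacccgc

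Nuclear members have promoters of their own. RefSeq promoter windows (build GRCm38.p6, 250 bases before to 50 after the start) were matched for 79 of the 100. Each was searched on both strands for the cores of 3 motifs. GCATGCGC, the core of the nuclear respiratory factor 1 motif, was found in 12 of the 79 (15.2%), against 3.05% of the 27025 genes with a window and 6.24% of the 5034 genes tested here. AAGATGGC, the core of the YY1 motif, was likewise found in 12 (15.2%), against 3.19% and 5.84%. CCGGAAGT, the ETS motif, was found in 5 (6.33%), against 4.31% and 8.92%. None of the 3 letter strings contains another, and a match is not evidence of a bound site. Windows of the most abundant nuclear members per transcript length are shown because both hold such letters. Cox6a1 and Cox8a encode small subunits of complex IV. Capitals mark in Cox6a1 a match of GCATGCGC on each strand, which overlap, and in Cox8a both ETS matches, read on the reverse strand. The Cox6a1 window is chr5:115348909-115349208 and the Cox8a window chr19:7217567-7217866, both on the minus strand.
Cox6a1 promoter: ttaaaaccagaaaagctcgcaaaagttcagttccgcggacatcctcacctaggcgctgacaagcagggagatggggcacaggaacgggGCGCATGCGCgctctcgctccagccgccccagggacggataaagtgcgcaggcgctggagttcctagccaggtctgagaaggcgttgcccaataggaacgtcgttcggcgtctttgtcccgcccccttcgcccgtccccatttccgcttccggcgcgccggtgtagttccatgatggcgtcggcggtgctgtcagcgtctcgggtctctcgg
Cox8a promoter: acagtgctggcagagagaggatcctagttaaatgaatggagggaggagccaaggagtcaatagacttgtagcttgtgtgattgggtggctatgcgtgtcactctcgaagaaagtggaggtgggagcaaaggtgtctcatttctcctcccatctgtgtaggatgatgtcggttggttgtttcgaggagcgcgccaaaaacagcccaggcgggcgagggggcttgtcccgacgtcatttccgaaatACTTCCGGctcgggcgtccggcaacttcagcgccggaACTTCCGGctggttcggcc

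The mitochondrial set dominated the chain's RNA in every library, and its share varied widely within groups. It took 10.5%, 11.2% and 26.7% of all counts in CTRL 1, 2 and 3. The ECKO libraries gave 20.9%, 13.96% and 12.9%, those of SMKO 15.1%, 24.1% and 28.5%, and those of DKO 20.7%, 10.5% and 21.0%. The highest shares belonged to SMKO 3 and CTRL 3, and the ranges of the 4 groups overlapped. Exact 95% binomial intervals, which cover counting error only, were narrow beside these differences, the widest being 28.2% to 28.9% in SMKO 3.

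The nuclear set took a far smaller part of the counts and ran the other way. Its share was 1.20%, 1.23% and 0.600% in CTRL 1, 2 and 3, and 0.795%, 1.12% and 0.956% in ECKO. It was 1.11%, 0.832% and 0.600% in SMKO and 0.925%, 1.03% and 0.887% in DKO. CTRL 3 and SMKO 3 were lowest, and again all groups overlapped. Because the mitochondrial share itself lowers all other shares, the nuclear set was also taken over counts outside the mitochondrial set. There it ran from 0.819% in CTRL 3 and 0.840% in SMKO 3 to 1.38% in CTRL 2.

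Mitochondrial counts outnumbered nuclear ones by 8.75 to 1 in CTRL 1 and by 47.6 to 1 in SMKO 3. On the log2 scale this ratio was 3.13, 3.19 and 5.48 in CTRL 1, 2 and 3. The ECKO libraries stood at 4.71, 3.64 and 3.75, those of SMKO at 3.77, 4.86 and 5.57, and those of DKO at 4.49, 3.34 and 4.56. The lowest and the second highest values of the series were both CTRL libraries. Group means were 4.73 ± 0.91 (SD, n = 3) in SMKO, 4.13 ± 0.69 in DKO, 4.03 ± 0.59 in ECKO and 3.93 ± 1.34 in CTRL.

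Against CTRL the mean ratio differed by 0.10 in ECKO, 0.80 in SMKO and 0.20 in DKO, each less than the pooled SD of 1.04, 1.14 and 1.06. The differences rested on single libraries, shallow or deep. CTRL 3 alone made CTRL overlap the other groups: CTRL 1 and 2 (3.13 and 3.19) lay below all 9 libraries of the other groups, the lowest of which was DKO 2 at 3.34. Without CTRL 3 the differences were 0.87, 1.57 and 0.97, above pooled SDs of 0.48, 0.74 and 0.56 (3 against 2 libraries). CTRL 1 and 2 were also deeper than every library but ECKO 2, which stood at 3.64. Without CTRL 1 the differences were -0.30, 0.40 and -0.20, so those of ECKO and DKO changed sign. Without SMKO 3 the SMKO difference was 0.38. A line on total counts over the 12 libraries, with the groups in the fit, left 0.07, 0.14 and -0.03.

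**Figure D1:**
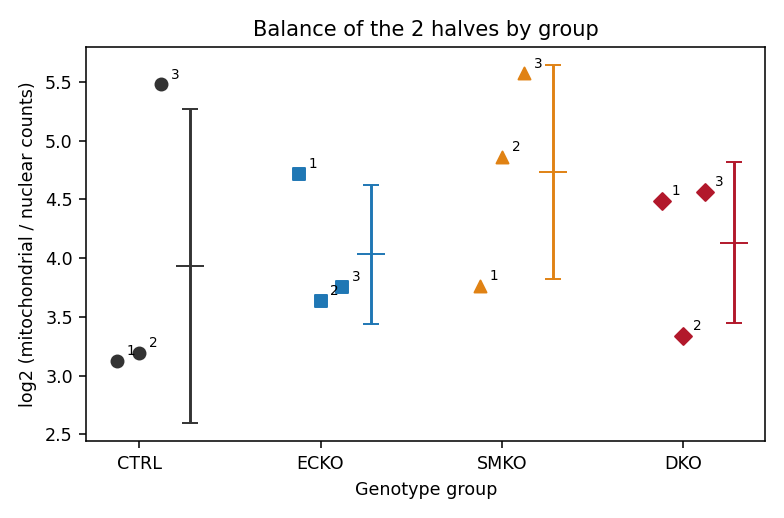
Log2 ratio of summed mitochondrial to summed nuclear counts (vertical axis) for each numbered library of the 4 genotype groups, with the group mean and SD as bars. CTRL holds both the lowest value (3.13) and a value of 5.48, and every group overlaps every other, CTRL through replicate 3 alone.

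The balance between the genomes followed library depth, and no like measure was computed for genotype. The log2 ratio had a Pearson r of -0.93 (Spearman rho -0.88) with log10 total counts over 12 libraries, falling by 2.89 for each 10-fold higher total. The correlation was -0.91 without CTRL 3 and SMKO 3, -0.92 after centring within groups, and -0.94 against counts outside the mitochondrial set. The log2 mitochondrial share had r = -0.87 and the log2 nuclear share r = 0.95. Over counts outside the mitochondrial set, the nuclear share still had r = 0.91. These are descriptions across libraries whose shares contain the same totals, and no test was attached to a sum over members.

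Beside the nuclear set, other gene groups were set against depth. Their summed log2 CPM correlated with depth at 0.49 for cytoplasmic ribosomal proteins (names beginning Rpl or Rps; 0.56 without CTRL 3 and SMKO 3), 0.78 for mitochondrial ribosomal proteins (0.66 without them) and 0.88 for oxidase assembly factors (0.81). Electron carriers gave 0.72 and citrate cycle genes 0.63, and these rose to 0.92 and 0.91 without the same pair, near the 0.95 of the nuclear set. Interstitial cell markers gave 0.66, and -0.01 without the pair. Heart muscle markers gave 0.16 and 0.40. These CPM are taken over all counts, so a lower mitochondrial share raises that of every other group. In an edgeR fit scaled by total counts alone, the median slope of all tested genes was 0.67 log2 per 10-fold higher total. The sums rose by 0.45 for cytoplasmic ribosomal proteins, 0.69 for mitochondrial ones and 0.63 for interstitial markers. Electron carriers rose by 0.75, citrate cycle genes by 0.83, oxidase assembly factors by 1.03 and the nuclear set by 1.20. The satellite-like transcript Gm10800 made up 2.98% of CTRL 3, 1.67% of SMKO 2, 0.980% of ECKO 1 and 0.974% of SMKO 3, against 0.00884% of CTRL 1. It did not follow depth throughout, at 0.0626% of DKO 3 and 0.123% of DKO 1, below the 0.184% of the deeper DKO 2. RNA quality was not recorded in the labels, and its part in the relation to depth was not tested.

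**Figure D2:**
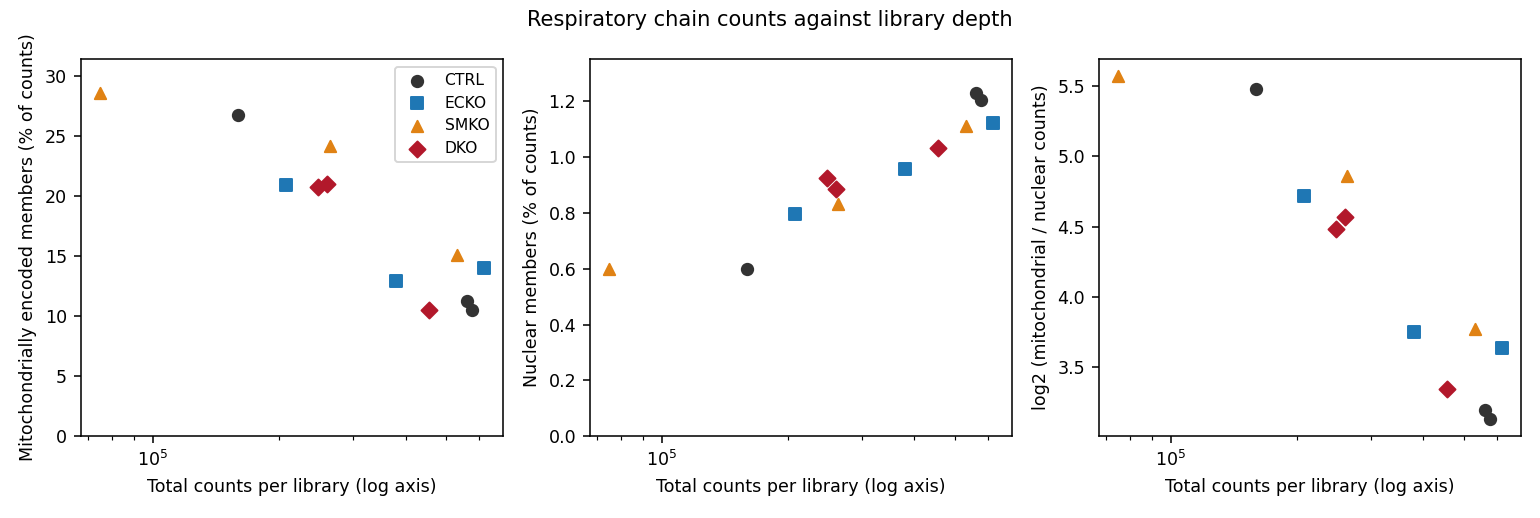
Share of all counts taken by the mitochondrial set and by the nuclear set (left and middle, percent), and the log2 ratio of their counts (right), against total counts per library (horizontal log axis), coloured by group. The mitochondrial share is 28.5% in SMKO 3, the shallowest library, 10.5% in CTRL 1 and 13.96% in ECKO 2, the deepest. The nuclear share is 0.600%, 1.20% and 1.12% in the same libraries.

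Complexes were assigned here by gene name alone, so that Ndufa4, for example, is counted with complex I. Each complex that mixes both genomes showed the same opposition. The log2 ratio within complex I (mt-Nd genes against Nduf genes) ran from 3.03 to 5.50, within complex III (mt-Cytb against Uqc genes) from 3.18 to 5.66, within complex IV from 3.45 to 6.02 and within complex V from 2.93 to 5.54. Correlations with log10 depth were -0.94 for complexes I, III and IV and -0.89 for complex V. Complex II, made by the nucleus alone, took between 0.0167% (SMKO 2) and 0.0367% (CTRL 1) of counts, and its log2 share correlated with depth at 0.81. That rests on 14 counts in SMKO 3 and 212 in CTRL 1.

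Gene by gene, the depth relation was tested in an edgeR quasi-likelihood fit of all 6296 genes that passed the count filter, with the groups in the model and Benjamini-Hochberg adjustment. All 13 mitochondrial and 81 of the 100 nuclear members passed the filter. No member reached an adjusted p under 0.05, where the background was 0.0159% (1 gene). At an unadjusted p under 0.05 all 13 mitochondrial members stood, each lower with depth, against 4.15% of all genes in that direction and 8.07% in either. Of the nuclear members, 17 of 81 did so, each higher with depth, against 3.92% of all genes. By name these were 8 of complex I (Ndufa4 included), 1 of II, 1 of III, 5 of IV and 2 of V. The 13 mitochondrial genes moved together across libraries (median pairwise r 0.93), so theirs is not a count of separate observations. The median slope, as log2 change per 10-fold higher total, was -2.03 for the mitochondrial set, 0.64 for the nuclear set and 0.04 for all genes.

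Slopes of the mitochondrial genes lay between -2.54 and -1.53. Levels of single members below are CPM after TMM scaling. mt-Nd4l, a small membrane subunit of complex I, had 340, 511 and 946 CPM in CTRL 1, 2 and 3 and 718, 645 and 598 in ECKO. It had 564, 1054 and 2053 CPM in SMKO and 841, 301 and 750 in DKO. SMKO 3 was highest and DKO 2 lowest, and the groups overlapped. Its slope was -2.03 ± 0.42 (SE; adjusted p = 0.117 by edgeR), the second smallest p of all genes tested. mt-Nd5 (-1.94 ± 0.46, adjusted p = 0.224) and mt-Nd3 (-1.73 ± 0.42, adjusted p = 0.253), further complex I subunits, ranked 6 and 7.

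mt-Atp8, an ATP synthase subunit, had the steepest slope at -2.54 ± 0.66 (adjusted p = 0.261). mt-Atp6, the proton channel subunit of ATP synthase, ran from 21358 CPM in CTRL 1 to 101698 CPM in SMKO 2, with a slope of -2.36 ± 0.71 (adjusted p = 0.294). The oxidase subunits had slopes of -2.18 (mt-Co1), -2.22 (mt-Co2) and -2.23 (mt-Co3). Those of mt-Nd1, mt-Nd2, mt-Nd4 and mt-Nd6, in complex I, were -2.18, -1.90, -1.81 and -1.53. The slope of mt-Cytb, in complex III, was -1.80 ± 0.61 (adjusted p = 0.439), and it had the largest p of the set.

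Nuclear slopes were above 0 for 72 of 81 tested members. Ndufa1, an accessory subunit of complex I, had 118, 109 and 31.8 CPM in CTRL 1, 2 and 3 and 27.4, 87.5 and 44.5 in ECKO. It had 58.4, 77.3 and 44.3 CPM in SMKO and 34.2, 78.9 and 22.2 in DKO. The deepest library was the highest in CTRL, ECKO and DKO, and SMKO 2 was the highest in SMKO. Its slope was 2.45 ± 0.69 (adjusted p = 0.261), followed by Sdhd (2.09), Ndufa9 (1.83 ± 0.90, adjusted p = 0.621), Cox6b1 (1.79 ± 0.47, adjusted p = 0.261) and Ndufa6 (1.78). Members at an unadjusted p under 0.05 also included Ndufa3 (1.67), Ndufb1 (1.59) and Cox7c (1.55). The lowest nuclear slope was that of Atp5o_2 (the second of 2 rows named Atp5o), at -0.38 ± 0.44.

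The number of calls depended on the scaling and on which libraries were included. With total counts in place of TMM scaling, which moved the median slope of all genes to 0.67, 21 members were called, 11 mitochondrial and 10 nuclear. The medians were then -1.61 (mitochondrial) and 1.29 (nuclear), on either side of that shift. Without SMKO 2, 15 members were called, and without SMKO 3, 9. Without CTRL 3 none was called, and 11 of the 13 mitochondrial members stood at an unadjusted p under 0.05, against 13 in every other fit that left out a library.

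**Figure D3:**
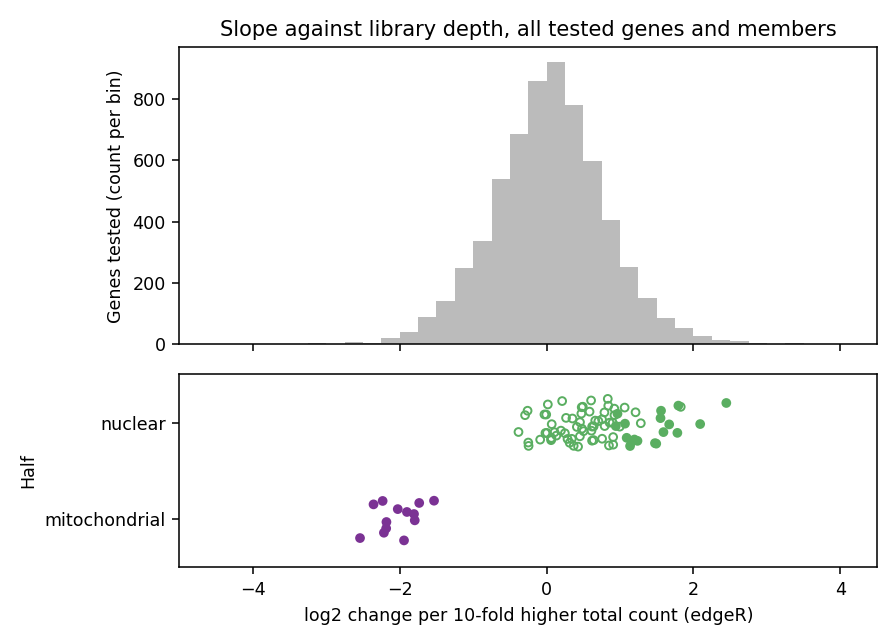
Slope against library depth (log2 change per 10-fold higher total count, edgeR) for the mitochondrial and nuclear members, over the distribution of all tested genes. All 13 mitochondrial slopes lie between -2.54 and -1.53, and 72 of the 81 nuclear slopes lie above 0.

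Pairwise correlations differed between the sets. Across the 12 libraries, the median pairwise correlation of log2 CPM was 0.93 among mitochondrial genes, 0.31 among nuclear genes and -0.30 between the sets. Counting noise weighs more on the nuclear genes, which in SMKO 3 held 449 counts against 21361 mitochondrial. Its part in these correlations was not tested, so they do not compare how closely the genes of each set are coordinated. The genes outside the chain most like the summed mitochondrial set were Tmem259 (r = 0.92), Rhog (0.88), Dip2b (0.87), Pcdhgc4 (0.87) and Ctsz (0.86). Those most like the nuclear set were Myl12a (0.96), Sec61g (0.94), Gpr137b (0.92), H3f3a (0.92) and Hmox2 (0.91). These correlations share the libraries' depth.

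No member was called between any pair of genotypes, nor in the F test over the 4 groups, at an adjusted p under 0.05 by edgeR. Over all genes the called share was 0.492% in DKO against CTRL, 0.572% in DKO against ECKO and 0.302% over the 4 groups. It was 0% in the other 4 pairs. At an unadjusted p under 0.05, 6 of the 94 tested members stood in DKO against CTRL (all genes 11.7%), 2 in ECKO against CTRL (4.29%) and 3 in SMKO against CTRL (5.46%). There were 2 in DKO against ECKO (10.8%), 1 in SMKO against ECKO (3.86%), 0 in DKO against SMKO (6.31%) and 3 over the 4 groups (8.97%). DKO was compared with CTRL and ECKO using the same DKO libraries, and the 3 comparisons with CTRL share the CTRL libraries, so counts cannot be added. In whole leaflets, fewer cells of a type and less RNA per cell cannot be told apart.

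Markers of other leaflet cells also differed between these groups. Of the 7 valve endothelium markers, 4 were lower and 1 higher at an unadjusted p under 0.05 in DKO against CTRL (all genes 11.7%). None was called there, and 3 of the 7 lay above 0. In DKO against ECKO, 4 were lower and 0 higher (all genes 10.8%). Kdr, an endothelial growth factor receptor, was called in the latter (-1.76 ± 0.40, adjusted p = 0.0404 by edgeR). The summed endothelial markers ran from 788 to 909 CPM in CTRL, 814 to 1411 in ECKO, 543 to 1377 in SMKO and 484 to 841 in DKO. Of 5 tested melanocyte markers, 4 were lower in ECKO than in CTRL at an unadjusted p under 0.05 (all genes 4.29%), where none was called. Dct, a melanin synthesis enzyme, was called in DKO against ECKO (2.57 ± 0.49, adjusted p = 0.0404 by edgeR). The summed melanocyte markers ran from 57.8 to 116 CPM in ECKO, against 169 to 781 in CTRL, 187 to 744 in SMKO and 365 to 803 in DKO. The part of these cells in the values of chain members was not tested.

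For the mitochondrial set, the median log2 difference from CTRL was -0.09 in ECKO, 0.64 in SMKO and 0.09 in DKO, beside -0.00, 0.01 and 0.02 over all genes. All 13 genes lay above 0 in SMKO against CTRL and against ECKO (median 0.76). All 13 lay below 0 in DKO against SMKO (median -0.49). The 13 genes moved together across libraries (median pairwise r 0.93), so they are not separate observations. In none of the 6 pairs did any mitochondrial gene have all libraries of a group above those of the other. mt-Nd3 came nearest, with 1390, 1568 and 3268 CPM in CTRL 1, 2 and 3, 2488, 1893 and 1722 in ECKO, and 2316, 2981 and 5938 in SMKO. SMKO 3 stood above every other library, and SMKO overlapped both CTRL and ECKO. The log2 difference was 0.85 ± 0.39 from CTRL (adjusted p = 0.885 by edgeR) and 0.87 ± 0.39 from ECKO (adjusted p = 1.00). SMKO holds the shallowest library of the series.

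These values rest on single CTRL libraries. Without CTRL 3 the mitochondrial medians against CTRL were 0.69 in ECKO, 1.45 in SMKO and 0.88 in DKO, with all 13 genes above 0 in each. At an unadjusted p under 0.05 stood 1, 12 and 2 of the 13, against 5.28%, 6.05% and 11.2% of the 7593 genes then tested, and no member was called (smallest adjusted p among members 0.200 by edgeR, in DKO). Since the 13 genes move together, these are not counts of separate observations. Without CTRL 1 the medians were -0.38, 0.40 and -0.16, and without CTRL 2 they were -0.36, 0.38 and -0.09. With log10 total counts as a covariate over all 12 libraries they were 0.06, 0.35 and 0.05, and no mitochondrial gene stood at an unadjusted p under 0.05.

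For the nuclear set, the median log2 difference from CTRL was -0.08 in ECKO, -0.02 in SMKO and 0.01 in DKO, and -0.20, -0.10 and -0.11 without CTRL 3. Libraries of the groups did not overlap for 13 of 81 nuclear members in DKO against CTRL (9 higher and 4 lower), where all genes gave 17.8%. The counts were 8 in DKO against ECKO (18.8%), 8 in DKO against SMKO (9.53%), 5 in ECKO against CTRL (11.7%), 7 in SMKO against CTRL (10.5%) and 3 in SMKO against ECKO (9.29%).

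**Figure D4:**
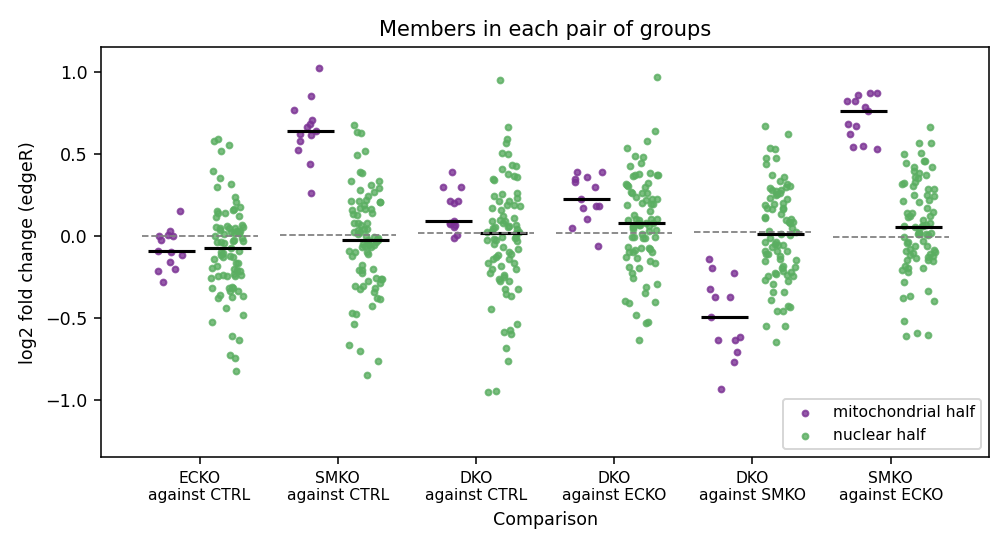
Log2 fold change by edgeR (vertical axis) of each tested member in the 6 pairs of groups, mitochondrial and nuclear members apart. The 13 mitochondrial points shift as a block, above 0 in SMKO against CTRL (median 0.64) and below 0 in DKO against SMKO (median -0.49), while nuclear medians stay within 0.08 of 0.

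The smallest p among members belonged to Sdhb, the iron-sulfur subunit of complex II. It had 63.9, 56.2 and 31.8 CPM in CTRL 1, 2 and 3 and 65.8, 92.1 and 84.0 in ECKO. It had 98.6, 71.8 and 73.9 CPM in SMKO and 83.1, 107 and 133 in DKO. All 9 libraries of the other groups lay above the 3 of CTRL. The log2 difference from CTRL was 0.95 ± 0.29 in DKO (adjusted p = 0.162 by edgeR), 0.63 ± 0.31 in SMKO (adjusted p = 0.885) and 0.58 ± 0.29 in ECKO (adjusted p = 0.998), and none passed.

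Its partners did not share that order. Sdhc, a membrane anchor of complex II, had 87.3, 64.5 and 79.5 CPM in CTRL 1, 2 and 3 and 53.8, 40.5 and 44.4 in DKO, which did not overlap. Its log2 difference was -0.76 ± 0.33 (adjusted p = 0.339). Sdhd, the other anchor, ran from 0 CPM in SMKO 3 to 56.2 in ECKO 2. Sdha, the flavoprotein that oxidises succinate, was the steadiest, between 82.8 CPM in SMKO 2 and 137 in ECKO 1.

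In complex I, Ndufb4 (-0.95 ± 0.37, adjusted p = 0.276) and Ndufa1 (-0.95 ± 0.42, adjusted p = 0.380) had the lowest values in DKO against CTRL. Ndufv3, a flavoprotein-module subunit, had 71.2, 40.6 and 37.1 CPM in ECKO 1, 2 and 3 and 83.1, 98.0 and 84.3 in DKO, without overlap. Its log2 difference was 0.97 ± 0.32 (adjusted p = 0.204).

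In complex III, Uqcrq was higher in DKO than in CTRL by 0.66 ± 0.26 (adjusted p = 0.279), with 147, 177 and 213 CPM in DKO 1, 2 and 3 against 119, 104 and 119 in CTRL. The groups did not overlap, and the difference did not pass. Uqcrfs1, the Rieske iron-sulfur protein, was at -0.85 ± 0.39 in SMKO against CTRL (adjusted p = 0.885), with 0 counts in SMKO 3. In complex V, Atp5pb, a stalk subunit, was at -0.82 ± 0.33 in ECKO against CTRL (adjusted p = 0.998), and Atp5o_2 at 0.59 ± 0.28 in DKO against CTRL (adjusted p = 0.401). Ndufaf8, a complex I assembly factor, was at -0.76 ± 0.37 in SMKO against CTRL (adjusted p = 0.885).

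Levels per transcript length were read from the deposited TPM, over 12 libraries. The order within the mitochondrial set was steady in part. mt-Atp6 led with 112119 ± 31805 TPM (SD) and exceeded mt-Co3 (48304 TPM) in 12 of 12 libraries. mt-Co2 (36350) and mt-Nd1 (33835) came next and changed places in 1 library. mt-Cytb (24825), mt-Co1 (23238), mt-Nd2 (21150) and mt-Atp8 (20616) were not in a fixed order, since each exceeded the next in 9, 8 and 7 of 12 libraries. They were followed by mt-Nd4 (14812), mt-Nd3 (10932), mt-Nd6 (7036), mt-Nd4l (3914) and mt-Nd5 (2873). Here mt-Atp8 exceeded mt-Nd4 in 10 of 12 libraries and mt-Nd4 exceeded mt-Nd3 in 11. mt-Atp6 alone held 25.7% of mitochondrial counts, between 22.0% in SMKO 3 and 29.0% in SMKO 2. The 24 genes of mitochondrial ribosomal and transfer RNA had 0 counts in every library.

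Nuclear members lay far below on the same scale, with a median of 114 TPM against 21150. Medians were 271 TPM for complex III, 211 for complex IV, 196 for complex V, 111 for complex I, 58.1 for complex II and 9.71 for assembly factors. The highest were Cox8a (1195 ± 341), Cox6a1 (774), Atp5l (738), Ndufa2 (630), Atp5e (604) and Uqcr11 (590). Ndufa7 (568), Cox6c (544), Cox6b1 (534) and Atp5k (491) completed the leading 10. Except for the ATP synthase members Atp5l, Atp5e and Atp5k and the complex III member Uqcr11, they are small subunits of complexes IV and I.

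Of the 19 members that did not pass the filter, 9 were assembly factors and 2 (Ndufb11b and the first Atp5o row) had 0 counts everywhere. Several of the others are isoforms used by heart and skeletal muscle. Cox6a2 had 25 counts in ECKO 2, 4 in CTRL 2, 1 each in ECKO 1 and SMKO 2, and 0 in the other 8 libraries. Cox7a1 had 15 in ECKO 2, 7 in CTRL 2, 2 in CTRL 1, 1 each in ECKO 1 and DKO 2, and 0 elsewhere. Cox8b had 9 in ECKO 2 and 0 to 5 in the others. ECKO 2, the deepest library, thus had the highest count for each of the 3. It held 671 heart muscle marker counts against 5 to 43 in each other library. In ECKO 2, Cox6a2 made up 10.6% of Cox6a1 and Cox6a2 counts (exact 95% interval 6.97% to 15.2%), and Cox7a1 11.4% of Cox7a2 and Cox7a1 counts (6.50% to 18.0%). By share, Cox8b did not single out ECKO 2. It made up 2.87% of Cox8a and Cox8b counts there, against 2.99% in ECKO 3 and 7.69% in SMKO 3 (2 counts of Cox8b). When the count filter was dropped, Cox6a2 alone was called in DKO against ECKO (adjusted p = 0.0187) and over the 4 groups (0.00994). That call rests on the 25 counts of ECKO 2, and the part of heart muscle tissue in it was not tested.

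**Figure D5:**
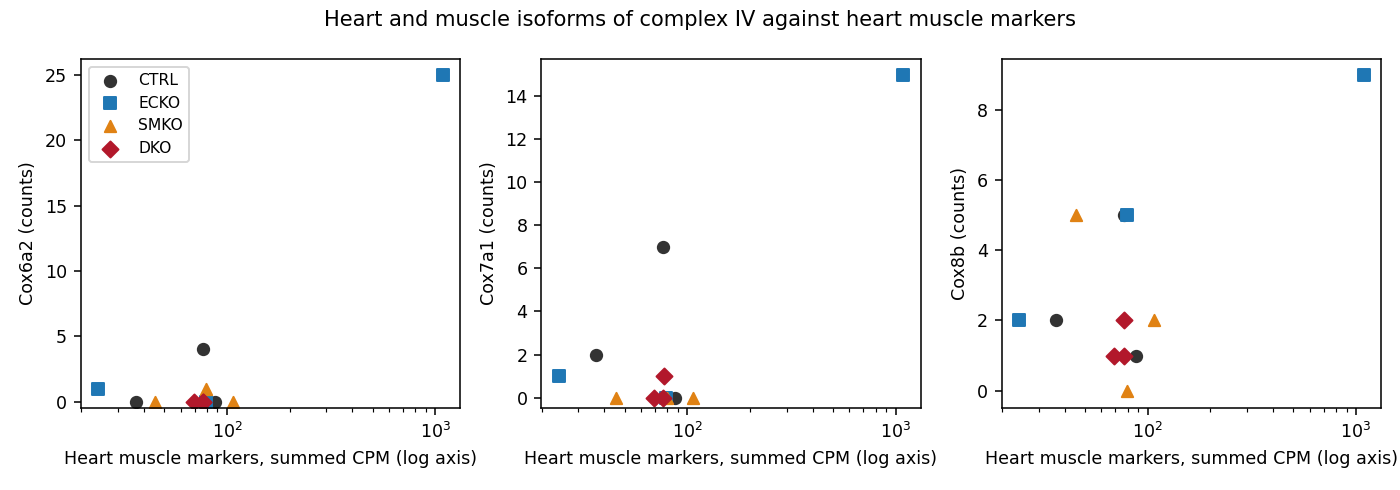
Counts of Cox6a2, Cox7a1 and Cox8b (vertical axes) against summed heart muscle markers in CPM (horizontal log axis) for the 12 libraries, by group. ECKO 2, at 1090 CPM of markers, has the highest count in each panel (25, 15 and 9).

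Cox4i2, the isoform of the Cox4 subunit known from lung and from responses to low oxygen, passed the filter. Of Cox4i1 and Cox4i2 counts together, Cox4i2 made up 20.6%, 21.3% and 15.6% in CTRL 1, 2 and 3 and 24.5%, 23.2% and 30.4% in ECKO. The shares were 18.2%, 14.9% and 40.0% in SMKO and 13.6%, 16.2% and 19.8% in DKO. ECKO lay above the other groups except for SMKO 3, where the 95% interval of 16.3% to 67.7% rests on 15 counts. The counting intervals of ECKO and CTRL libraries overlapped, and the level of Cox4i2 differed between these groups by 0.52 ± 0.30 log2 (adjusted p = 0.998). Over all libraries the share was 20.7% (18.5% to 23.1%). Ndufa4l2, a relative of Ndufa4 also linked to low oxygen, had 14 counts in all and Cox8c had 1.

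Genes that serve the chain without belonging to it were counted from lists. In every one of the 6 pairs, no member passed an adjusted p of 0.05 among 7 tested genes of mitochondrial transcription and RNA handling, 40 mitochondrial ribosomal proteins, 4 biogenesis regulators, 8 electron carriers (Cyc1 included), 10 oxidase assembly factors, 16 citrate cycle and pyruvate genes and 5 mitochondrial stress genes. Nearest was Mterf4, which acts in mitochondrial ribosome assembly, at -1.97 ± 0.50 in DKO against ECKO (adjusted p = 0.0626). Mrps6, a mitochondrial ribosomal protein, was at 1.08 ± 0.33 in the same pair (adjusted p = 0.154). With depth, none of these lists had a called member either. Their median slopes were 0.00 for stress genes, 0.06 for mitochondrial ribosomal proteins, 0.13 for RNA handling, 0.36 for oxidase assembly, 0.49 for the citrate cycle, 0.67 for electron carriers and 0.87 for the 4 biogenesis regulators, beside 0.64 for the nuclear set.

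The sets also differ in features that the choice of members did not use. Protein-coding transcripts of mitochondrial members had a median length of 784 bases and a GC content of 37.1%, those of nuclear members 655 bases and 52.4%, and those of all tested genes 2200 bases and 50.5%. Median lengths of both sets lay below that of all tested genes, and their median slopes against depth lay on opposite sides of 0. Across 6283 tested genes with a transcript model, the depth slope had r = -0.04 with log10 length and r = -0.08 with GC content. Within the nuclear set these were -0.21 and -0.38, and within the 13 mitochondrial members 0.22 and -0.09. The part of length and GC content in the slopes was not tested. Genes are not independent replicates, and these values describe the 12 libraries.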

How the data were processed

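The authors deposited 1 table of 41709 genes, which per the file headers holds whole-number total counts and TPM for each of the 12 libraries, beside their own comparisons, which were left out. The submitters' processing notes name the build GRCm39. Which aligner, counter and annotation were used, and how strand and reads shared between genes were handled, is not given in the sources used here. Per the labels' protocols the libraries were made with Nextera XT from amplified cDNA and read as paired ends of 75 bases. TPM were scaled by the authors within a library. They served for levels between genes and, as an alternative to counts, for the ratio of the sets.

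The deposited counts were the input of every test. Genes were kept by edgeR's filterByExpr (minimum count 10), which left 6296 genes with 93.1% of counts, and were scaled by TMM. Tests used edgeR 4.0.16 under R 4.3.3: robust quasi-likelihood F tests in 1 model of all 12 libraries (8 residual degrees of freedom), adjusted by Benjamini-Hochberg. The depth fit added centred log10 total counts (7 residual degrees of freedom). Standard errors are the log2 change over the square root of F. DESeq2 1.42.0 and limma-voom (limma 3.58.1) were alternatives. Intervals for shares are exact Clopper-Pearson at 95%, and PCR copies were not removed by molecular identifiers, so they cover counting error only. Libraries of a group differed by more than sampling noise (chi-square per degree of freedom 1.85 to 9.64), so none were merged.

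Named were all mitochondrial members, the nuclear members with the smallest p in each pair, the 10 with the highest mean TPM, the Sdh genes and the tissue isoforms. Those named for slope were taken by unadjusted p, since no member was called, and were chosen after their values were seen. Members and lists were chosen with earlier results of these data known. Replicate numbers were not taken to pair libraries.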

Additional observations from a re-analysis of the deposited data

How the results depend on the processing

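Over the alternatives tried (TMM without mitochondrial genes, no TMM, no count filter, DESeq2, limma-voom, a depth covariate, each library left out in turn), the count of members called between groups was 0 except without a count filter, where 1 was called in DKO against ECKO and 1 over the 4 groups, both Cox6a2. The count called with depth was 0 as reported, 21 without TMM, 5 without the filter, 6 by DESeq2, 3 by limma-voom, 3 with depth alone and no group term, and 1 without CTRL 3 and SMKO 3 together. Leaving out single libraries gave 0 to 15, with 15 without SMKO 2, 9 without SMKO 3 and 1 without SMKO 1. Nuclear members at an unadjusted p under 0.05 with depth numbered 17 as reported, 53 without TMM, 33 without the filter, 4 without CTRL 3 and SMKO 3 together, and 10 (without ECKO 2) to 27 (without SMKO 2) with single libraries left out. The mitochondrial count was 11 to 13 throughout. The cause of these changes was not tested, save that no filter adds genes and fewer libraries lower the residual degrees of freedom. The leave-out of CTRL 3 and SMKO 3 together was added after seeing the data, as were the counts at unadjusted p.

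With the replicate number as a block, 0 members were called in every comparison, and 5 nuclear and 13 mitochondrial members stood at an unadjusted p under 0.05 with depth. Libraries of the same number did not deviate together: correlations of their deviations ran from -0.136 to 0.165 for number 1, from -0.031 to 0.10 for number 2 and from 0.023 to 0.139 for number 3. The correlation of the mitochondrial to nuclear ratio with depth lay between -0.94 and -0.91 under all alternatives, deposited TPM included. No called result changed sign, but uncalled values near 0 did. The mitochondrial median in ECKO against CTRL (-0.09) was 0.05 without TMM, 0.08 with the replicate block, 0.06 with the depth covariate and -0.46 (without ECKO 1) to 0.69 (without CTRL 3) with single libraries left out. In DKO against CTRL (0.09) it was -0.17 (without DKO 1) to 0.88 (without CTRL 3). The ratio differences of ECKO (0.10) and DKO (0.20) from CTRL ran from -0.30 to 0.87 and from -0.20 to 0.97.

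Depth limits the nuclear set: SMKO 3 held 449 nuclear counts over 83 detected members, so single nuclear genes there rest on few counts.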

Other observations

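The make-up of the mitochondrial set varied less than its total. mt-Cytb held 8.50% of mitochondrial counts in SMKO 3 and 11.3% in ECKO 2, and mt-Nd2 held 4.72% in SMKO 2 and 10.0% in CTRL 1. Within the set, the share of mt-Cytb correlated with log10 depth at 0.68, that of mt-Nd6 at 0.50 and that of mt-Co3 at -0.38 (12 libraries, described only). Of the genes in the shared stretches, mt-Atp8 and mt-Atp6 correlated at -0.15 and -0.18, and mt-Nd4l and mt-Nd4 at -0.17 and 0.47. In the remaining pair, mt-Nd5 was at -0.02 beside the 0.50 of mt-Nd6. mt-Nd3, mt-Nd4l and mt-Nd5 all had their highest share in SMKO 3, the shallowest library.

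Around the fitted line of the log2 ratio on depth, the residual SD was 0.33, against an SD of 0.86 for the ratio itself. SMKO 2 (0.45) and CTRL 3 (0.44) lay highest above the line, and SMKO 3 (-0.42) and DKO 2 (-0.38) lowest below it, so neither sign belonged to a genotype.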
